A study of Arabidopsis thaliana with 6 samples.

Results

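The 7 NRT2 genes of Arabidopsis thaliana, which encode high-affinity nitrate transporters, and NRT3.1, which encodes their partner protein, were taken by their locus identifiers and make up 8 of the 33602 genes of the deposited table. Their transcript levels were compared between whole seedlings of the Columbia ecotype grown for 12 days on 5 mM glutamate and on 5 mM ammonium nitrate, each given as the only nitrogen source. The seedlings grew on agar with diluted Murashige and Skoog salts free of nitrogen and with 0.5% sucrose. The labels give 22 °C, 16 h of light and 8 h of dark, and 2 days of cold. Both groups shared these conditions, and each group had 3 RNA-seq libraries. Glutamate brought 5 mM nitrogen and no nitrate, while ammonium nitrate brought 10 mM nitrogen, so that the source, its amount and the presence of nitrate and ammonium cannot be told apart. No label says that the libraries came from separate plates, and the p-values therefore reflect how far these samples scattered, which could be technical scatter.

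Plants take up nitrate at low outside concentrations with NRT2 carriers of the root plasma membrane, most of which need NRT3.1 (also called NAR2.1) for stability and transport. NRT2.1 carries most of this uptake in plants that have been short of nitrogen for a while, with smaller parts for NRT2.2, NRT2.4 and NRT2.5, whereas NRT2.7 sits in the vacuole membrane of seeds. NRT2.1 is known to be induced by nitrate and repressed by ammonium and by ample nitrogen, and NRT2.4 and NRT2.5 are known as genes of nitrogen starvation.

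The genes lie on 3 chromosomes in the TAIR10.1 annotation. NRT2.1 (AT1G08090, chr1:2524023-2526322, + strand) and NRT2.2 (AT1G08100, chr1:2527170-2529120, - strand) are neighbours whose ends face each other across 847 bases. NRT2.4 (AT5G60770, chr5:24444365-24447127) and NRT2.3 (AT5G60780, chr5:24450745-24452964) are neighbours on the + strand, 3617 bases apart. The others stand alone, NRT2.5 (AT1G12940) at chr1:4416315-4418590 on the + strand, NRT2.6 (AT3G45060) at chr3:16477561-16479559 on the - strand, NRT2.7 (AT5G14570) at chr5:4695084-4697078 on the - strand and NRT3.1 (AT5G50200) at chr5:20436180-20437815 on the + strand. NRT2.4 has 4 exons, NRT2.6, NRT2.7 and the longest NRT3.1 transcript have 2, and the other carriers have 3. The coding sequences of NRT2.1 and NRT2.2 were the most alike, with 89.4% identity over 1569 aligned bases and an identical run of 170 bases. NRT2.3 and NRT2.6 came next, at 81.9%, and NRT2.7 was no more than 62.0% identical to any other NRT2 gene.

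The 250 bases before the annotated gene start are shown for the tandem pair, for the starvation carriers NRT2.4 and NRT2.5 and for NRT2.7, whose level went the opposite way. Capitals mark GAATC or its complement GATTC and GAATATTC, which repressors of the HRS1 type are known to bind, and TGACG or CGTCA, the core of TGA factor sites.
NRT2.1, chr1:2523773-2524022 (+ strand): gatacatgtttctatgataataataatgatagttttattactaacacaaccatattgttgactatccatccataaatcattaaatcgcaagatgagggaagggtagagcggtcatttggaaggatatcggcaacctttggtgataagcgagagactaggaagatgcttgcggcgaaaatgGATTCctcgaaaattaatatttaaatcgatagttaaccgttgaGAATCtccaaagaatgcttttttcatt
NRT2.2, chr1:2529121-2529370 (- strand): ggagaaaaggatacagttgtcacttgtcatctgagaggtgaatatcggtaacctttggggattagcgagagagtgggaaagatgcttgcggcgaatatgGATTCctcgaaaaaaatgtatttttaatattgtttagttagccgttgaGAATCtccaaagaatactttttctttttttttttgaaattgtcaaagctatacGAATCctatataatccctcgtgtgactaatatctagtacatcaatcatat
NRT2.4, chr5:24444115-24444364 (+ strand): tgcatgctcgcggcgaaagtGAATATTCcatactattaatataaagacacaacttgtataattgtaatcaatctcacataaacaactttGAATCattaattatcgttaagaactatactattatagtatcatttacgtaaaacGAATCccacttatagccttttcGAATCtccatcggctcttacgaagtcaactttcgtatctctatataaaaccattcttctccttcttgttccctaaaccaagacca
NRT2.5, chr1:4416065-4416314 (+ strand): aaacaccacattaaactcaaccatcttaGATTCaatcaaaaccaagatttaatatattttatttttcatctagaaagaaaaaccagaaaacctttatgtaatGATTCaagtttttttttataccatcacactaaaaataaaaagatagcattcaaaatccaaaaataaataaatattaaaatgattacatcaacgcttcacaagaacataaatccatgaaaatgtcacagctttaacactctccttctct
NRT2.7, chr5:4697079-4697328 (- strand): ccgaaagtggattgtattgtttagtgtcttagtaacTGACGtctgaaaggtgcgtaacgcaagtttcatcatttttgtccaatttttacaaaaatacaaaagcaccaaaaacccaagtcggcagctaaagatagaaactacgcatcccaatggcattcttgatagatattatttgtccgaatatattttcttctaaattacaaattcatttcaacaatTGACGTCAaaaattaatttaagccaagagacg
On either strand, GAATC lay in 5 of the 8 members' windows (NRT2.1, NRT2.2, NRT2.4, NRT2.5 and NRT3.1), against 38.9% of the windows of 27443 nuclear protein-coding genes. GAATATTC was in the window of NRT2.4, 230 bases before the gene, and in 0.86% of all windows. TGACG was in the window of NRT2.7, where 2 matches overlap in the palindrome TGACGTCA, and in 18.6% of all windows. The windows of NRT2.1 and NRT2.2 shared a run of 22 bases, ccgttgaGAATCtccaaagaat. These matches describe the letters of the windows, and binding was not measured.

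Libraries held 49520237 to 63424574 reads assigned to genes. Levels are in RPKM, the reads of a gene divided by its length in kilobases and by library size, with the authors' TMM scaling, and the deposited values include 0.5 read added to every gene. Log2 fold changes are of log2(RPKM + 1), glutamate over ammonium nitrate, which understates the change of genes of low level, and limma gave the adjusted p-values (moderated test, Benjamini-Hochberg over every gene tested). Of the 8 members, 5 reached the mean level of 1 RPKM at which genes were tested, and NRT2.1, NRT2.5 and NRT2.6 reached it through their glutamate libraries alone. In this test 71.8% of 20032 genes passed at an adjusted p of 0.05, and 35.0% were higher on glutamate and 36.8% lower. With libraries set to equal totals in place of the TMM scaling, the balance of all genes shifted to 8452 higher and 5989 lower of 20036, against 7013 higher and 7377 lower, while the members' calls were 4 higher and 1 lower under both scalings. Among the 5 tested members 4 were higher and 1 lower. Without the level filter, 7 of the 8 were higher and 1 lower, where 29.8% of 26283 genes with a read were higher and 29.3% lower. With limma's voom on the recovered reads the members' counts were again 7 and 1, beside 30.5% and 29.7% of 26227 genes. Since most genes passed, the sizes of the differences carry more than the calls.

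**Figure D1:**
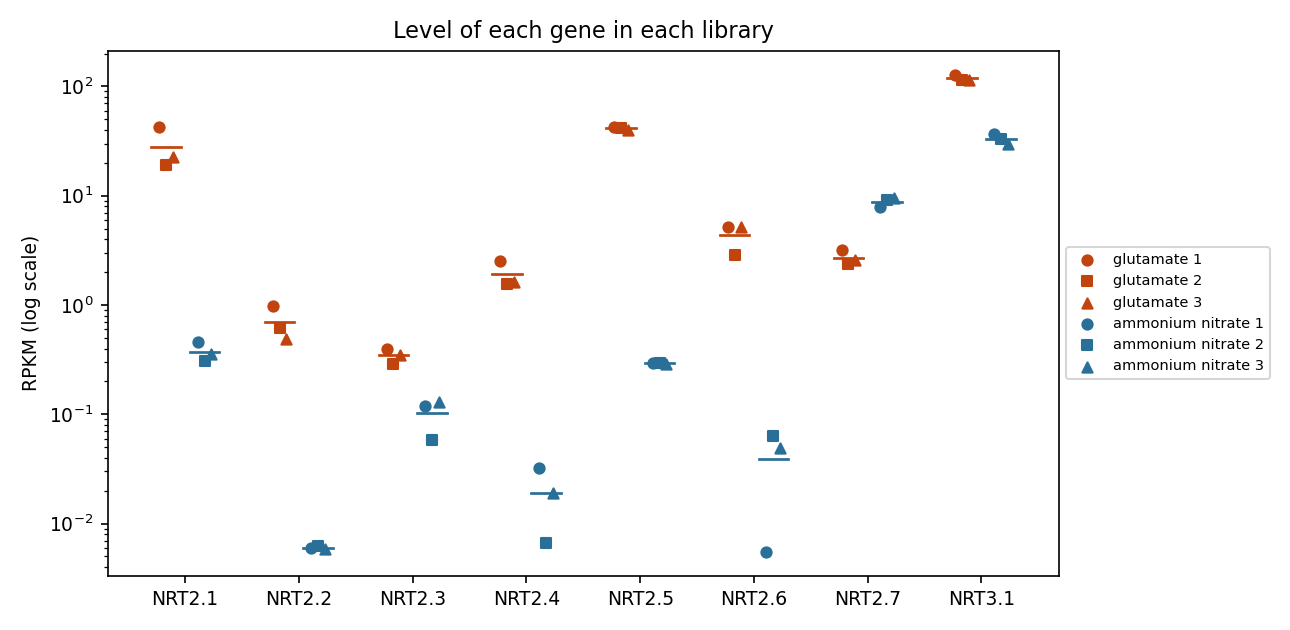
RPKM of each gene in each library on a log axis, glutamate at the left of each pair and ammonium nitrate at the right, with bars at the group means (n = 3). Every gene but NRT2.7 has its 3 glutamate values above its 3 ammonium nitrate values, and the lowest ammonium nitrate points of NRT2.2, NRT2.4 and NRT2.6 are libraries with 0 reads.

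Seedlings on glutamate held far more transcript of the plasma membrane carriers than seedlings on ammonium nitrate. NRT2.5, a carrier of nitrogen-starved roots and leaves, and NRT2.1, the main root carrier, held most of it. NRT3.1 also rose, by a smaller factor from a higher level, and NRT2.7 fell. None of the 8 genes had overlapping values in the 2 groups, and the same held for 76.1% of the 20032 tested genes and 67.5% of the 26283 genes with a read.

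NRT2.1 was at 42.7, 19.1 and 22.5 RPKM in glutamate replicates 1, 2 and 3 and at 0.463, 0.305 and 0.354 RPKM in ammonium nitrate replicates 1, 2 and 3. Replicate 1 stood well above the other glutamate libraries, and the lowest glutamate library was still far above every ammonium nitrate library. The means were 28.1 ± 12.8 and 0.374 ± 0.081 RPKM (SD, n = 3 each), a ratio of 75.1, with a log2 fold change of 4.32 ± 0.25 (SE, limma adjusted p = 2.16e-06). The ammonium nitrate values rested on 43, 27 and 33 reads. The change in NRT2.1 ranked 41 from the top among the 20032 tested genes.

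NRT2.2, the close neighbour of NRT2.1, stayed low in both groups. It was at 0.985, 0.615 and 0.487 RPKM in the glutamate libraries, while the ammonium nitrate libraries held 0 reads each. Against a floor of 3 reads per library, which averaged 0.036 RPKM on ammonium nitrate, NRT2.2 was at least 19.3-fold higher on glutamate. This bound takes each read as independent. NRT2.2 was under the level filter, and in the fit without that filter it passed (limma adjusted p = 0.000872). By the deposited counting, NRT2.2 held 2.02%, 2.79% and 1.89% of the reads of the pair in glutamate replicates 1, 2 and 3. The deposited largest share of multiply mapped reads was 2.33% for NRT2.1 and 0.849% for NRT2.2, and the fractional reads of the pair added up to whole numbers of 5091, 1942 and 2874 in those libraries. The sources used here do not say how such reads were divided, so the split between both genes is uncertain.

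NRT2.5 was the carrier with the most transcript on glutamate, at 42.7, 41.4 and 40.3 RPKM, against 0.293, 0.293 and 0.291 RPKM on ammonium nitrate. Both groups were tight, and the ammonium nitrate values stood for 25, 24 and 25 reads. The ratio of the means, 41.5 ± 1.21 and 0.292 ± 0.0013 RPKM (SD, n = 3 each), was 142, with a log2 fold change of 5.04 ± 0.06 (SE, limma adjusted p = 8.23e-09). Its change ranked 13 from the top of the 20032 tested genes, ahead of NRT2.1.

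NRT2.4, a high-affinity carrier of starved roots, had 2.54, 1.57 and 1.61 RPKM on glutamate, from 247, 129 and 168 reads. On ammonium nitrate it had 2, 0 and 1 reads in replicates 1, 2 and 3. Scaled for library size, the ratio of summed reads was 148, with a 95% counting interval of 50.4 to 720. Counting intervals do not cover the spread between libraries, and they take each read as independent, which may make them too narrow. NRT2.4 was just under the level filter, and without it the log2 fold change was 1.50 ± 0.12 (SE, limma adjusted p = 9.14e-05).

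NRT2.6, whose part in nitrate uptake is less clear, was at 5.23, 2.86 and 5.14 RPKM on glutamate. It had 0, 5 and 4 reads in ammonium nitrate replicates 1, 2 and 3. The ratio of summed reads was 135, with a counting interval of 70.7 to 295, and the log2 fold change was 2.35 ± 0.18 (SE, limma adjusted p = 8.90e-06). NRT2.3, the neighbour of NRT2.4, had the smallest ratio among the members that were higher. It was at 0.397, 0.290 and 0.351 RPKM on glutamate and 0.119, 0.059 and 0.130 RPKM on ammonium nitrate, from 39, 24 and 37 against 9, 4 and 10 reads. The ratio of its means was 3.38, and it passed in the fit without the level filter (limma adjusted p = 0.00121). Though 81.9% identical in coding sequence, NRT2.3 and NRT2.6 thus differed 12.7-fold in mean level on glutamate.

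NRT2.7, the vacuolar carrier, was the member that fell. It was at 3.16, 2.37 and 2.59 RPKM on glutamate and 7.81, 9.08 and 9.53 RPKM on ammonium nitrate. The groups were well apart, with means of 2.71 ± 0.41 and 8.80 ± 0.89 RPKM (SD, n = 3 each), 3.25-fold lower on glutamate. The log2 fold change was -1.40 ± 0.10 (SE, limma adjusted p = 6.78e-06), and 98.1% of tested genes had a higher log2 fold change.

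NRT3.1, the partner protein gene, was the most abundant member in every library. It was at 128, 116 and 114 RPKM on glutamate and 36.5, 33.1 and 29.8 RPKM on ammonium nitrate. The means of 119 ± 7.9 and 33.1 ± 3.4 RPKM (SD, n = 3 each) gave a ratio of 3.60 and a log2 fold change of 1.82 ± 0.08 (SE, limma adjusted p = 5.36e-07). Unlike NRT2.1 to NRT2.6, NRT3.1 was thus well expressed on ammonium nitrate.

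**Figure D2:**
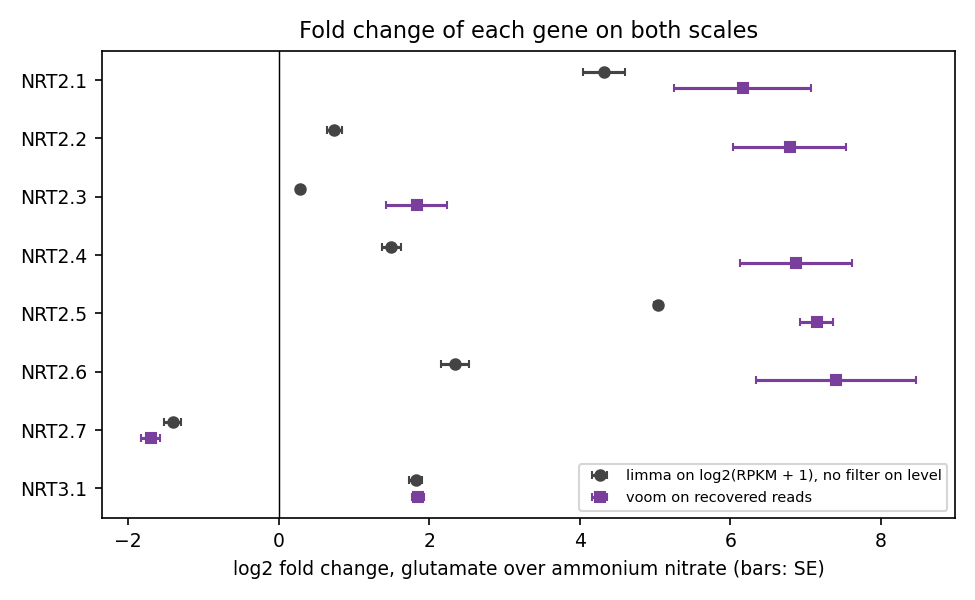
Log2 fold change of each gene, glutamate over ammonium nitrate, with SE bars, from log2(RPKM + 1) without a level filter (circles) and from the recovered reads with limma's voom (squares). NRT3.1 reads 1.82 and 1.85 and NRT2.7 -1.40 and -1.70, whereas NRT2.2 reads 0.74 with the pseudocount of 1 RPKM and 6.79 from reads.

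The pseudocount set how large the change of the low genes looked, and the direction was the same on both scales. From recovered reads with voom, the log2 fold changes were 6.16 for NRT2.1, 6.87 for NRT2.4, 7.15 for NRT2.5, 7.40 for NRT2.6 and 1.83 for NRT2.3, with SE of 0.91, 0.74, 0.22, 1.06 and 0.41 in that order. The intervals of 1 SE of NRT2.1 and NRT2.6, the lowest and the highest value if NRT2.3 is set aside, overlapped on this scale. The fitted value of NRT2.2, which had no read on ammonium nitrate, depends on the added prior and is no bound.

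On glutamate the order of levels was NRT3.1, NRT2.5, NRT2.1, NRT2.6, NRT2.7, NRT2.4, NRT2.2 and NRT2.3, from high to low. The ranges of NRT2.5 and NRT2.1 overlapped, because NRT2.1 reached 42.7 RPKM in replicate 1, and those of NRT2.6 and NRT2.7 and of NRT2.7 and NRT2.4 overlapped as well. On ammonium nitrate the order was NRT3.1, NRT2.7, NRT2.1, NRT2.5, NRT2.3, NRT2.6, NRT2.4 and NRT2.2. There the ranges of NRT2.3 and NRT2.6 and of NRT2.6 and NRT2.4 overlapped.

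The makeup of the NRT2 family differed between the groups. On glutamate the 7 carriers summed to 97.8, 68.2 and 73.0 RPKM, against 8.73, 9.81 and 10.4 RPKM on ammonium nitrate. NRT2.5 made up 53.2% ± 8.7 of this sum on glutamate and 3.05% ± 0.28 on ammonium nitrate, and NRT2.1 made up 34.2% ± 8.4 and 3.95% ± 1.19 (SD, n = 3 each). NRT2.7 made up 3.42% ± 0.16 on glutamate and 91.3% ± 1.6 on ammonium nitrate. NRT2.6 held 5.53% and 0.394%, NRT2.4 2.37% and 0.206%, NRT2.2 0.858% and 0.0625%, and NRT2.3 0.438% and 1.07% on glutamate and ammonium nitrate. The ammonium nitrate share of NRT2.2 stands for 0 reads and comes from the 0.5 read added to every gene, so it is no measured level. The added 0.5 read also weighs on the ammonium nitrate shares of NRT2.4, from 2, 0 and 1 reads, and NRT2.6, from 0, 5 and 4 reads. NRT2.3 took a smaller share on glutamate although its own level was higher there. None of the 7 shares overlapped between the groups, with these reservations for NRT2.2, NRT2.4 and NRT2.6. Each share had an exact permutation p of 0.1 (two-sided, adjusted over the 7 shares 0.1), the smallest that 3 against 3 libraries allow.

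**Figure D3:**
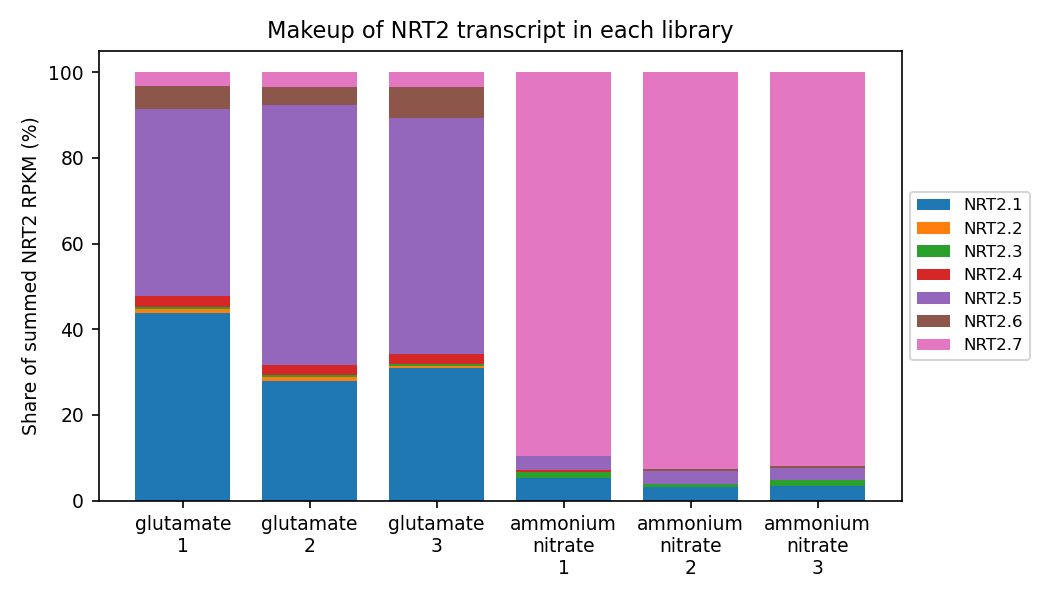
Share of the summed RPKM of the 7 NRT2 genes held by each gene, in percent, in each library, glutamate libraries at the left. NRT2.5 and NRT2.1 fill most of each glutamate bar, and NRT2.7 fills 89.5% to 92.5% of each ammonium nitrate bar.

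Without the vacuolar NRT2.7, the 6 other carriers summed to 76.9 ± 15.5 RPKM on glutamate and 0.834 ± 0.094 RPKM on ammonium nitrate, a ratio of 92.2. NRT3.1 stood at 1.31, 1.70 and 1.56 RPKM per RPKM of all NRT2 genes on glutamate and at 4.19, 3.38 and 2.87 on ammonium nitrate. On the log2 scale the difference of this ratio was -1.18 (p = 0.1 in a two-sided exact permutation, which can go no lower). Against NRT2.1 to NRT2.6 alone, a sum chosen after the values were seen, NRT3.1 stood at 1.58 ± 0.20 on glutamate and 39.99 ± 5.1 on ammonium nitrate (SD, n = 3 each). The partner transcript was thus in excess of the plasma membrane carriers in every library, by far more on ammonium nitrate.

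Glutamate replicate 1 was the highest glutamate library for all 8 members, whereas it was the highest for 35.4% of all tested genes. Its value over the mean of replicates 2 and 3 was 2.06 for NRT2.1, 1.79 for NRT2.2, 1.60 for NRT2.4, 1.31 for NRT2.6, 1.28 for NRT2.7, 1.24 for NRT2.3, 1.12 for NRT3.1 and 1.05 for NRT2.5. Over all tested genes this quotient had a median of 1.00 and ran from 0.835 at the 5th to 1.21 at the 95th percentile. Of the 5 members tested, NRT2.5 and NRT3.1 lay within that range and NRT2.1, NRT2.6 and NRT2.7 above it. NRT2.2, NRT2.3 and NRT2.4 were below the level at which genes entered this range, and their fewer reads make the quotient less certain, with 39, 24 and 37 reads behind that of NRT2.3. The coefficient of variation on glutamate was 45.5% for NRT2.1 and 2.93% for NRT2.5. Among the ammonium nitrate libraries no replicate was highest for more than 3 of the 8 members. Glutamate replicate 1 was also the highest glutamate library for every listed repressor of NRT2 genes that fell, described below. For the repressor AT3G25790 this rests on 9, 0 and 0 reads in glutamate replicates 1, 2 and 3. Glutamate replicate 1 was not the highest for the repressor IWS1, which rose, and the other listed regulators went both ways.

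**Figure D4:**
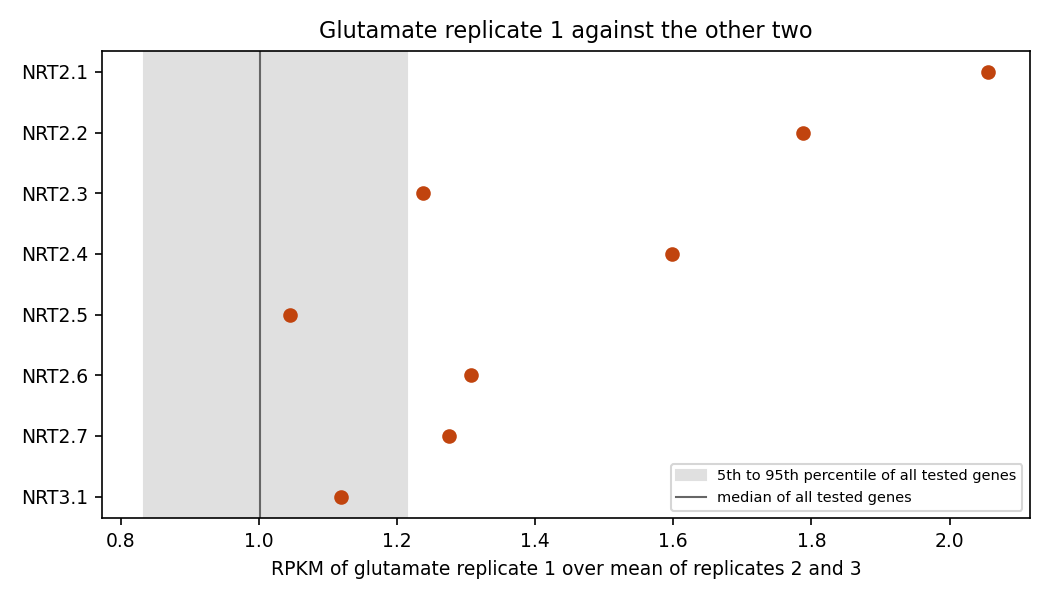
RPKM of glutamate replicate 1 divided by the mean of glutamate replicates 2 and 3, for each gene. The grey band runs from the 5th to the 95th percentile of all tested genes, 0.835 to 1.21, which do not include NRT2.2, NRT2.3 and NRT2.4, and NRT2.1 lies farthest to the right at 2.06.

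Whole seedlings hold roots and shoots, and a shift in their proportions and a change of transcript per cell cannot be told apart. All 17 root markers and all 10 shoot markers of the lists used here had reads and were tested. Of all tested genes, 35.0% rose and 36.8% fell, the shares to set beside the marker counts. Of the root markers, 9 rose, 4 fell and 4 missed the threshold, and their median log2 fold change was 0.58. Their summed level, most of it PYK10, was 1764 to 1931 RPKM on glutamate and 2322 to 2815 RPKM on ammonium nitrate. Of the shoot markers, 9 fell and LHCB3 did not pass, and they summed to 13060 to 14930 RPKM on glutamate and 31195 to 33303 RPKM on ammonium nitrate (exact permutation p = 0.1 for each sum, the smallest possible). The largest rise of a root marker was that of RHD6, a root hair regulator, at 5.70 and 1.68 RPKM on glutamate and ammonium nitrate. RHD6 was 3.38-fold higher on glutamate and PSAN, a photosystem subunit gene with the largest fall, 3.88-fold lower. The ratios of NRT2.1, NRT2.2, NRT2.4, NRT2.5 and NRT2.6 were larger than that of any marker in either direction. NRT2.3 and NRT3.1 were 3.38-fold and 3.60-fold higher on glutamate, and NRT2.7 was 3.25-fold lower. The part of root and shoot proportions in the differences of all 8 members was not tested. Glutamate replicate 1 was the highest glutamate library for 2 of the 17 root markers and 6 of the 10 shoot markers, and it was the highest glutamate library in both marker sums, with 1931 RPKM for the root list and 14930 RPKM for the shoot list.

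Of 17 other nitrate transport genes listed, 16 were tested, 6 rose, 6 fell and 4 did not pass. These shares were near those of all tested genes, 35.0% higher and 36.8% lower, so the counts show nothing about the list, and with equal totals per library they were 8 and 6. The median log2 fold change was 0.02 for the list and -0.02 for all tested genes. NRT3.2, the relative of NRT3.1, was not analysed here. The genes that rose with the smallest p were NPF7.2, which takes nitrate out of the xylem, at 35.2 ± 3.3 and 1.67 ± 0.39 RPKM on glutamate and ammonium nitrate, and NPF2.13, a carrier of leaf phloem loading, at 56.5 ± 2.8 and 21.8 ± 1.9 RPKM. The vacuolar channel family gene CLCB was at 14.9 ± 1.2 and 5.58 ± 0.63 RPKM, the root phloem carrier NPF2.9 rose 1.85-fold and the low-affinity carrier NPF4.6 1.14-fold. The genes that fell included NPF6.3, the dual-affinity carrier and nitrate sensor, which was 3.24-fold lower on glutamate. CLCA, the vacuolar nitrate exchanger, was 2.92-fold lower, the phloem carrier NPF1.2 2.87-fold and the xylem loading carrier NPF7.3 2.41-fold. SLAH1, a root anion channel subunit, was at 0.0752 ± 0.0205 RPKM on glutamate and 2.29 ± 0.53 RPKM on ammonium nitrate (SD, n = 3 each). Its glutamate values rested on 4, 5 and 8 reads, and SLAH1 reached the level filter through its ammonium nitrate libraries alone.

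Among 27 listed regulators of NRT2 genes, all tested, 10 rose, 14 fell and 3 missed the threshold, and the median log2 fold change was -0.24. Of the 10 repressors 9 fell and 1 rose, beside 36.8% and 35.0% of all tested genes, and their median was -2.35. The list was chosen with earlier results of these data known, so these counts are descriptive and no test of the repressors. BT2, a BTB and TAZ domain protein that represses NRT2.1 and NRT2.4, had the largest fall, to 1.80, 1.19 and 1.63 RPKM on glutamate, against 345, 369 and 332 RPKM on ammonium nitrate. Its relative BT1 was 37.4-fold lower on glutamate. HRS1, a myb-like repressor of NRT2 genes, was at 1.96 ± 0.31 RPKM on glutamate and 56.3 ± 10.8 RPKM on ammonium nitrate. The related myb-like genes AT3G25790, AT1G68670 and AT1G25550 fell too, at -2.46, -1.97 and -1.07 in log2 fold change. The pseudocount understates the fall of AT3G25790, which had 9, 0 and 0 reads on glutamate and a mean of 4.80 RPKM on ammonium nitrate. The LOB domain repressors LBD37 and LBD38 were 3.69-fold and 4.72-fold lower, and LBD39 was at 6.27 ± 1.29 RPKM on glutamate and 62.8 ± 5.8 RPKM on ammonium nitrate. The exception was IWS1, a transcription elongation factor needed for repression of NRT2.1 at high nitrogen, which rose 1.31-fold.

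The activators changed less, and 2 rose, 4 fell and 2 did not pass. Of all tested genes 35.0% rose and 36.8% fell, and 8 activators are too few to set against those shares. NLP7, the main transcription factor of the nitrate response, rose 1.23-fold, and NLP6 rose 1.36-fold. TGA1 and TGA4, which act on NRT2.1 and NRT2.2 after nitrate supply, fell 1.41-fold and 1.26-fold. TCP20 was at 10.5 and 9.44 RPKM on glutamate and ammonium nitrate and did not pass (limma adjusted p = 0.12).

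**Figure D5:**
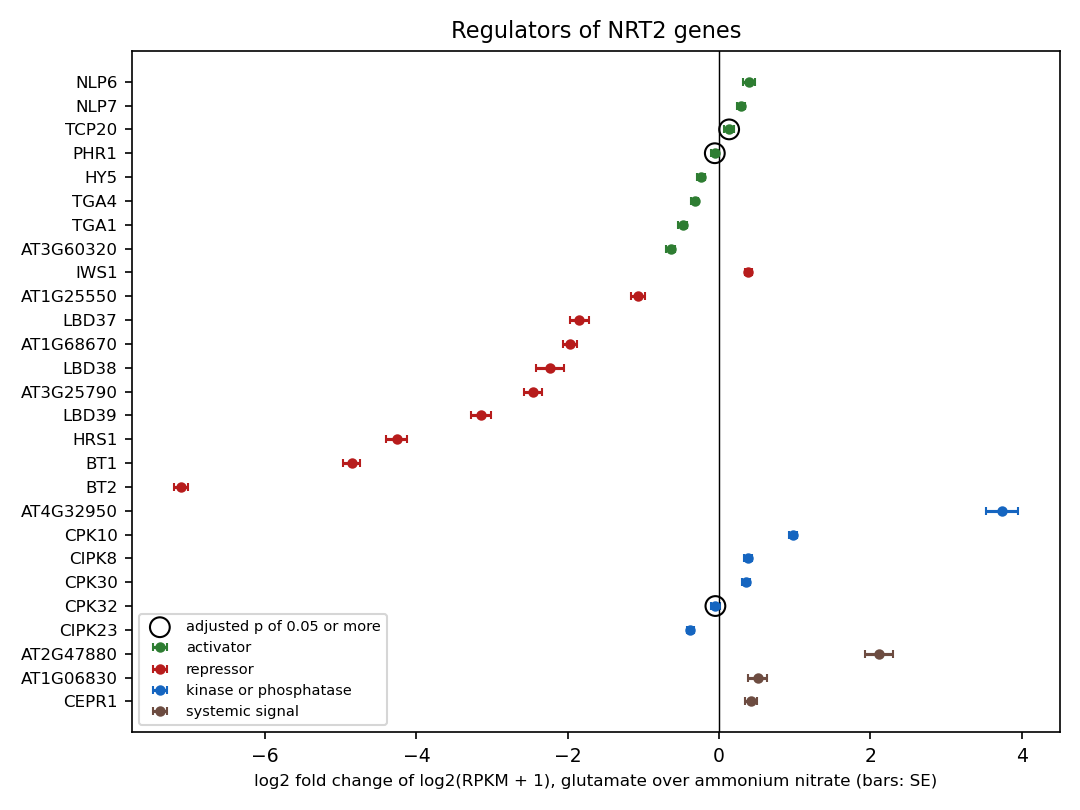
Log2 fold change of log2(RPKM + 1), glutamate over ammonium nitrate, with SE bars, for 27 regulators of NRT2 genes by role, with rings around the 3 genes that did not pass. The repressors (red) reach -7.11 for BT2, and the activators lie between -0.64 and 0.40.

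Of the 6 kinases and phosphatases, 4 rose and 1 fell, beside 35.0% and 36.8% of all tested genes. These 6 genes are too few to set against those shares. The protein phosphatase gene AT4G32950, of the 2C family, was at 32.4, 18.4 and 19.8 RPKM on glutamate and 0.918, 1.04 and 0.461 RPKM on ammonium nitrate, with a log2 fold change of 3.73 ± 0.21 (SE, limma adjusted p = 1.87e-06). As for NRT2.1 and for every listed repressor that fell, glutamate replicate 1 was its highest glutamate library. CPK10, a calcium-dependent kinase of nitrate signalling, rose 2.03-fold and CIPK8, a kinase of the low-affinity nitrate response, 1.31-fold, while CIPK23, which phosphorylates NPF6.3, fell 1.31-fold. All 3 genes listed for the systemic nitrogen signal rose, as did 35.0% of all tested genes, and 3 genes are too few to set against that share. The glutaredoxin gene AT2G47880 was at 94.5, 81.0 and 59.4 RPKM on glutamate and 14.2, 21.0 and 16.5 RPKM on ammonium nitrate, and the peptide receptor gene CEPR1 rose 1.38-fold.

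The genes most like a member were sought by the smallest distance between log2(RPKM + 1) profiles over the 6 libraries, each centred on its mean. For NRT2.1 these were SAG12, at a distance of 0.61, AT1G24147 at 0.69 and SIB1 at 0.72, beside a median distance of 5.38 over all tested genes. SAG12, a cysteine protease gene of late senescence, was at 24.1 ± 5.3 RPKM on glutamate. Its 0.0082 RPKM on ammonium nitrate comes from the part of a read added to every gene, so it is no measured level. AT1G24147 was at 66.2 and 2.92 RPKM and SIB1 at 73.9 and 3.71 RPKM on glutamate and ammonium nitrate. The likeness holds on the scale with 1 RPKM added, and the ratios of RPKM of these genes differ widely. For NRT2.5 the nearest genes were the glucanase gene BG3 at 0.34, WRKY38 at 0.38 and AT3G61280 at 0.40. For NRT3.1 they were the receptor kinase gene SERK4 at 0.14, RLP50 at 0.15 and AT1G77525 at 0.16. The median distances were 6.19 from NRT2.5 and 2.28 from NRT3.1. With only 2 groups, these distances largely follow the size of the difference between the groups. Genes with a large change therefore lie far from most genes, and shared control was not tested.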

How the data were processed

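Libraries were prepared with the Illumina TruSeq kit from whole-seedling total RNA, per the labels. The deposited values are RPKM scaled with TMM by the authors, per the file's name, with each gene's length in kilobases. The deposited table also gives a fraction per gene, by its name the largest share of multiply mapped reads. The submitters' processing notes name TAIR10 and SAMtools, and no aligner, read counter or annotation version is given in the sources used.

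RPKM times gene length fell on whole reads plus 0.5 for 100% of genes without multiply mapped reads (within 0.05 read), which gave the reads per gene and the library totals. Genes with 2 reads outnumbered those with 1 (646 and 264 in glutamate replicate 1), so reads may not be independent molecules. Floors and 95% exact binomial intervals concern counting error only. They take each read as independent, so they may understate that error. The two-sided test used limma 3.58.1 (R 4.3.3), with a trend of variance on level, on log2(RPKM + 1) of genes averaging 1 RPKM or more. The test was run on simulated data first. Shares, sums and ratios were compared with exact permutation tests in scipy 1.17.1. Alternatives changed the pseudocount, level filter, scaling, trend, multiply mapped genes, replicate block and replicates, and voom on recovered reads was added after seeing the data.

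Members and gene lists were chosen with earlier results of these data known. All 8 members are named; from the transport and regulator lists, the 5 genes of smallest p in each direction and the LBD, BT and myb-like repressors, NLP7 and NPF6.3 are named, and the other genes named (NLP6, TGA1, TGA4, TCP20, CIPK23, CEPR1, RHD6, PSAN, LHCB3, PYK10) were chosen after their values were seen. Sequences and positions are those of RefSeq's TAIR10.1, which keeps the nuclear chromosome sequences of TAIR10, and the table itself has no coordinates. Gene models differ, since 31.6% of 32827 genes had equal lengths in both. Identities are from global alignments of the longest coding sequences, made with Biopython 1.88.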

Additional observations from a re-analysis of the deposited data

How the results depend on the processing

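NRT2.1, NRT2.5, NRT2.6, NRT2.7 and NRT3.1 kept their direction and stayed past the threshold under every alternative that tested them, with adjusted p from 2.84e-09 to 0.000186 over these 5 genes. Of the members, 4 were called higher and 1 lower in all 6 fits that left out a library. With a mean of at least 5 RPKM, where NRT2.6 was not tested, 3 were called higher, and likewise 3 without genes with multiply mapped reads, where NRT2.1 was not tested. Without a level filter, where NRT2.2, NRT2.3 and NRT2.4 entered, 7 were called higher, and 7 with voom. The log2 fold change of NRT2.1 ran from 3.98 to 4.55 and that of NRT2.5 from 5.02 to 5.06 without single libraries. With equal totals per library the summed shoot markers were lower on glutamate by a difference of -16164 RPKM, against -17939 RPKM with the authors' scaling, 8452 genes were called higher and 5989 lower, and the median of all tested genes was 0.08 (log2) rather than -0.02. Same-numbered libraries share only a number, with correlations of their deviations of 0.10, 0.05 and -0.01, and with the replicate block 4 members were called higher and 1 lower, as without it, and 6929 and 7265 of all genes, against 7013 and 7377. The labels' 3 libraries per group limit every permutation p to 0.1, and in the NRT2 genes levels under about 0.03 RPKM rest on fewer than 3 reads.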
